A study of Bos taurus with 6 samples.

Results

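HOXA9 (ENSBTAG00000011476), ELL3 (ENSBTAG00000032132) and RIPPLY3 (ENSBTAG00000036019) encode nuclear proteins that control transcription during development, and their expression was followed in the lactating mammary gland of heifers with different intrauterine histories. The 3 genes were taken by name and Ensembl identifier, out of 24579 genes counted. The biopsies came from Holstein heifers at day 21 of their first lactation, from 3 in utero heat stressed heifers (IUHT-H 9196, 9203 and 9204; TRT:HT), whose dams had shade only, and from 3 in utero cooled heifers (IUCL-H 9202, 9214 and 9223; TRT:CL), whose dams had shade, fans and water soakers. The treatments reached the heifers only through the dam, in the final 6 to 7 weeks of gestation, and from birth both groups were kept under the same management. One library was made per heifer, and each library measured a whole biopsy, so fewer cells of a type and less RNA per cell cannot be told apart. The study named all 3 genes as higher in IUHT-H from a contrast of the same groups. It describes a further cooled heifer that was not analysed here, so its calls and those below do not rest on an identical set, and the differences below describe these heifers and are not independent evidence.

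HOXA9 is a homeodomain transcription factor of the HOXA cluster. HOX proteins set positional identity along the body axis and bind DNA together with cofactors of the PBX and MEIS families. HOXA9 is best known from blood progenitors and leukaemia, and mouse work on its paralogous group showed a role in the growth of the mammary gland during pregnancy. ELL3 belongs to the ELL family of elongation factors, which increase the rate at which RNA polymerase II moves along a gene, and it is known from testis, embryonic stem cells and B cells. RIPPLY3 is a corepressor without a DNA-binding domain of its own: it binds T-box transcription factors and recruits TLE (Groucho) corepressors to them, and it acts in the development of the pharyngeal region.

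The libraries held between 75754791 and 101361294 counts, and all 3 IUHT-H totals were below all 3 IUCL-H totals. A large part of each library went to very few genes. The 10 genes with the most counts took 67.6% of the counts of IUCL-H 9202, 72.5% of 9214 and 72.1% of 9223, against 65.8% of IUHT-H 9196, 64.7% of 9203 and 74.7% of 9204. Transcripts of caseins and whey proteins are known to dominate lactating mammary RNA, but none of the 6 milk protein genes listed for the purpose could be matched by name to an identifier in the files, so this share of the 10 most abundant genes was used in place of a milk gene share. The share did not separate the groups. IUHT-H averaged 68.4% ± 5.48 and IUCL-H 70.7% ± 2.73 (SD, n = 3 for each; two-sided exact permutation test, P = 0.6, where 0.1 is the smallest value that 3 against 3 allows). IUHT-H 9204 had the highest share of all 6 heifers and the other 2 IUHT-H had the lowest.

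Of the 3 genes, HOXA9 had the most reads, which says nothing of levels per gene length. IUCL-H 9202, 9214 and 9223 had 973, 535 and 529 counts, and IUHT-H 9196, 9203 and 9204 had 1026, 960 and 837. Levels below are CPM, counts scaled to library size, after TMM normalization, which rescales each library so that most genes agree between heifers. On this scale the 3 IUCL-H had 9.67, 5.93 and 6.03 CPM, and the 3 IUHT-H had 11.4, 10.2 and 12.1 CPM, in the same order of heifers. IUCL-H 9202 thus stood apart from its own group and close to IUHT-H, and the lowest IUHT-H lay 1.06 times above it. IUHT-H averaged 11.2 ± 0.962 CPM and IUCL-H averaged 7.21 ± 2.13 CPM (SD, n = 3 for each). The fitted difference, IUHT-H minus IUCL-H, was 0.64 on the log2 scale with a standard error of 0.20 (adjusted p = 0.999, edgeR's quasi-likelihood test). In this test HOXA9 missed the study's cut-off of 0.01 on the unadjusted value. The study used an earlier version of edgeR and does not name its test. Here 0.428% of the 14724 genes tested passed the cut-off in either direction and 0.285% passed with a higher level in IUHT-H. HOXA9 passed when all genes with at least 1 count were kept, where 0.463% of 19443 genes passed in either direction and 0.309% with a higher level in IUHT-H. Counting error was 3.12% to 4.35% of the value per heifer, against a coefficient of variation of 29.6% in IUCL-H and 8.55% in IUHT-H. It covered the gap that separates the groups: the 95% exact binomial intervals were 9.59 to 10.9 CPM for IUHT-H 9203 and 9.07 to 10.3 CPM for IUCL-H 9202.

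ELL3 had fewer reads but a wider gap between the groups. IUCL-H 9202, 9214 and 9223 had 140, 67 and 125 counts, or 1.39, 0.742 and 1.42 CPM. IUHT-H 9196, 9203 and 9204 had 216, 265 and 148 counts, or 2.40, 2.82 and 2.15 CPM. The lowest IUHT-H, 9204, was 1.51 times above the highest IUCL-H, 9223. Within IUCL-H, heifer 9214 lay well below the other two. IUHT-H averaged 2.46 ± 0.342 CPM and IUCL-H averaged 1.19 ± 0.385 CPM (SD, n = 3 for each). The fitted difference was 1.05 on the log2 scale with a standard error of 0.29 (adjusted p = 0.999, edgeR's quasi-likelihood test). ELL3 passed the cut-off of the study but not adjustment over all genes tested. By unadjusted value it ranked 43 and HOXA9 ranked 79 among the 14724 genes.

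RIPPLY3 was close to the limit of detection. IUCL-H 9202, 9214 and 9223 had 4, 1 and 3 counts, or 0.0397, 0.0111 and 0.0342 CPM. IUHT-H 9196, 9203 and 9204 had 18, 15 and 6 counts, or 0.200, 0.160 and 0.0868 CPM. For scale, 3 counts of a library correspond to 0.0296 to 0.0396 CPM before TMM. Every IUHT-H was above every IUCL-H, but IUHT-H 9204 differed from IUCL-H 9202 by 2 counts only. The 95% exact binomial intervals of these heifers, 0.0318 to 0.189 CPM for 9204 and 0.0108 to 0.102 CPM for 9202, overlapped widely (intervals cover counting error only). Summed over heifers, 39 counts in IUHT-H stood against 8 in IUCL-H, a ratio of 5.87 after division by the library totals (exact 95% interval 2.70 to 14.5, again without the spread between heifers). The filter on low counts removed RIPPLY3 and kept HOXA9 and ELL3, so its change was taken from a fit over all 19443 genes with at least 1 count. There the fitted difference was 2.34 on the log2 scale with a standard error of 0.68 (adjusted p = 0.989, edgeR's quasi-likelihood test). RIPPLY3 passed the cut-off of 0.01, as did the 0.309% of genes named above. Counting error alone amounted to 23.6% to 100% of the value per heifer, beside coefficients of variation of 38.5% in IUHT-H and 53.5% in IUCL-H.

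**Figure D1:**
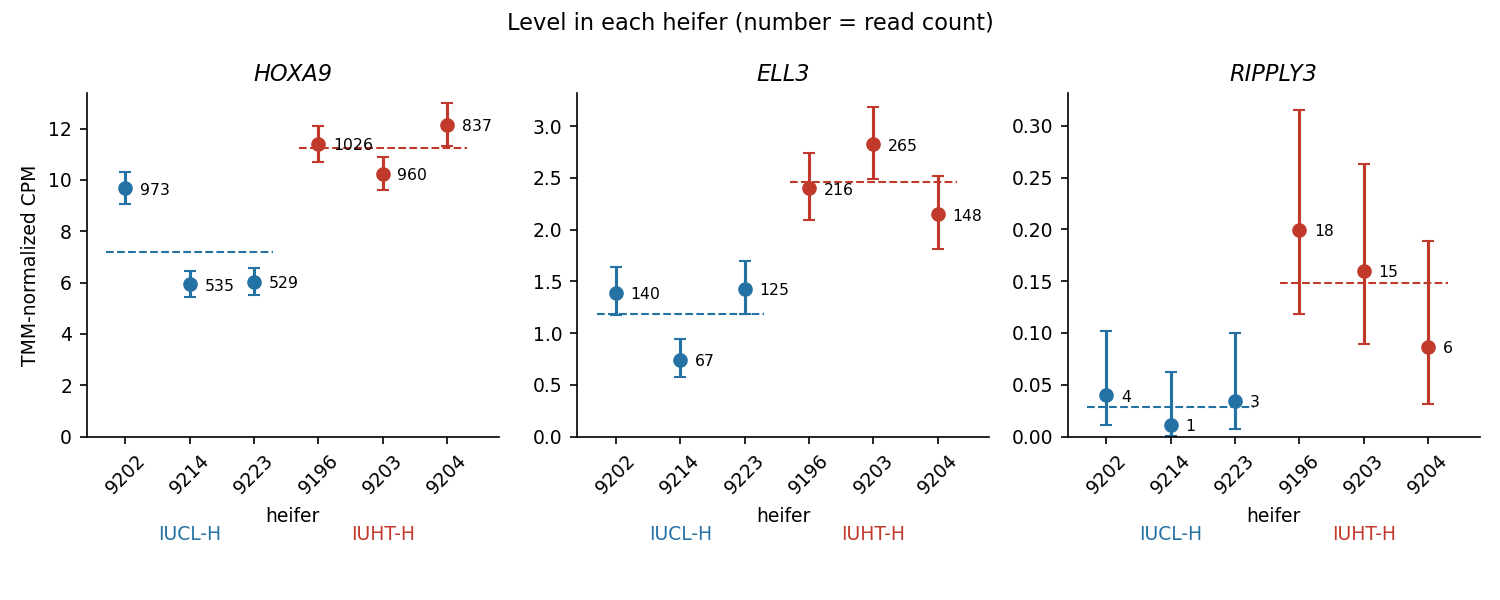
TMM-normalized CPM (y axis, linear, from 0) of HOXA9, ELL3 and RIPPLY3 in each of the 6 heifers (x axis), with the read count printed beside each point. Vertical bars are 95% exact binomial intervals of the count, rescaled to CPM, and dashed lines are group means (n = 3). HOXA9 of IUCL-H 9202 (9.67 CPM) lies just under IUHT-H 9203 (10.2 CPM), and ELL3 shows a gap between 1.42 and 2.15 CPM. The RIPPLY3 bars of IUHT-H 9203 and 9204 overlap bars of IUCL-H, and that of 9196 lies above them.

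In all 3 genes, the lowest IUHT-H value lay above the highest IUCL-H value on the TMM scale. Such a separation was found in 3.14% of the genes that passed the filter and in 3.02% of the genes with at least 1 count, and on raw counts, where ELL3 and RIPPLY3 were separated and HOXA9 was not, in 0.435% and 0.73%. An exact permutation test of the log2 CPM gave P = 0.1 for each gene, the smallest value possible with 3 heifers per group. That value follows from the separation on the TMM scale alone and adds nothing to it. The heifers did not keep the same order in the 3 genes. IUHT-H 9204 had the highest HOXA9 level of all heifers and the lowest ELL3 and RIPPLY3 levels among IUHT-H, whereas IUCL-H 9214 was the lowest heifer in each gene. Across the 6 heifers, Pearson's r of the log2 CPM was 0.95 between ELL3 and RIPPLY3, 0.80 between HOXA9 and ELL3 and 0.81 between HOXA9 and RIPPLY3. These coefficients describe 6 heifers in which each gene was chosen for a higher level in the same 3, and the RIPPLY3 values rest on few reads.

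The separation between groups depended on normalization most clearly in HOXA9. Scaled by library size alone, IUCL-H 9202, 9214 and 9223 had 10.6, 5.28 and 5.45 CPM of HOXA9 and IUHT-H 9196, 9203 and 9204 had 13.5, 12.0 and 9.85 CPM, so that IUHT-H 9204 fell below IUCL-H 9202 and the groups overlapped. ELL3 kept its separation on this scale, but the lowest IUHT-H was then only 1.14 times above the highest IUCL-H (1.74 against 1.53 CPM). RIPPLY3 also kept it, at 0.0706 CPM for IUHT-H 9204 against 0.0436 for IUCL-H 9202. On the library-size scale, 1.95% of the filtered genes and 2.58% of the genes with at least 1 count were separated in this direction. The TMM factor of 9204, 0.812, was the lowest, while IUHT-H 9196 and 9203 had the highest factors, 1.19 and 1.17. Over the 6 heifers the TMM factor was lower where the share of the 10 most abundant genes was higher (r = -0.99, given as a description because both come from the same counts).

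The log2 fold changes themselves moved little with normalization. For HOXA9 they were 0.64 with RLE size factors, 0.65 with upper-quartile factors and 0.73 with library size alone. For ELL3 the corresponding values were 1.05, 1.07 and 1.18, and for RIPPLY3 2.34, 2.36 and 2.50. With library size alone, the median log2 fold change of all tested genes shifted to 0.13 (0.14 with the genes of at least 1 count), and relative to it the changes were 0.59, 1.05 and 2.36. The standard error of ELL3 was 0.40 on this scale, and ELL3 no longer passed the cut-off of 0.01 over filtered genes (0.244% called higher in IUHT-H). Over genes with at least 1 count, ELL3 and RIPPLY3 both passed (0.375% called higher) and HOXA9 did not. When the 10 most abundant genes were left out before TMM, the log2 fold changes were 0.64 for HOXA9, 1.05 for ELL3 and 2.34 for RIPPLY3. Even with the remaining library size as the only scaling, they were 0.65, 1.07 and 2.37. With RLE factors, upper-quartile factors and both of these removals, ELL3 passed the cut-off over filtered genes and over genes with at least 1 count, and RIPPLY3 passed over the latter. HOXA9 did not pass over filtered genes in any of these 4 fits, but over genes with at least 1 count it passed with RLE factors and with the 10 genes left out before TMM. The shares of filtered genes called higher in IUHT-H in those 4 fits were 0.292%, 0.244%, 0.278% and 0.258%, and those of genes with at least 1 count were 0.324%, 0.319%, 0.329% and 0.273%. With the 6 most abundant genes left out (0.278% and 0.319%) and with robust quasi-likelihood (0.244% and 0.231%), ELL3 again passed over both sets of genes and RIPPLY3 over the latter, whereas HOXA9 passed only over genes with at least 1 count. With a filter of more than 1 CPM in 3 heifers (0.208%), ELL3 passed and HOXA9 did not.

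**Figure D2:**
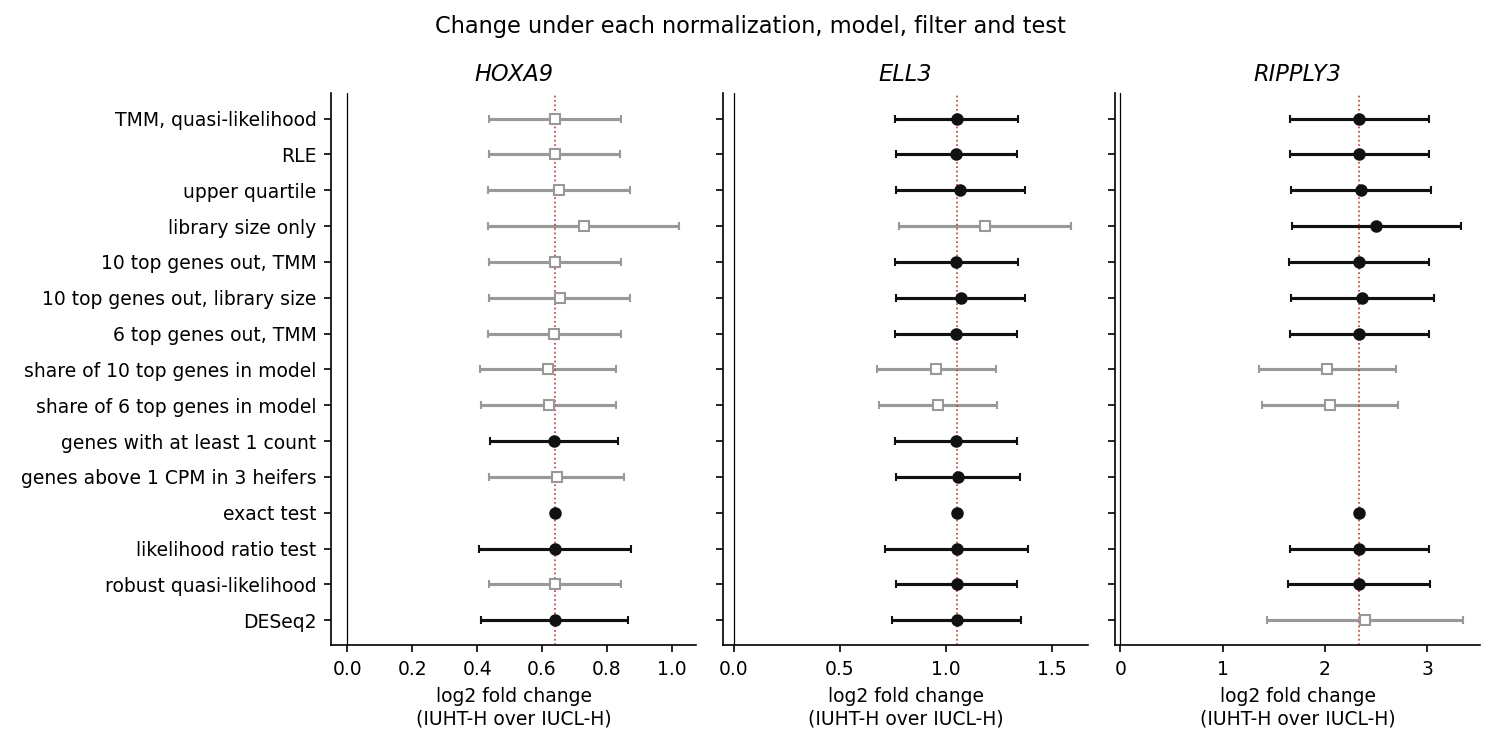
Log2 fold change of IUHT-H over IUCL-H (x axis) for HOXA9, ELL3 and RIPPLY3 under each normalization, model, filter and test (y axis). HOXA9 and ELL3 are from fits over filtered genes unless the row names another set. Bars are standard errors, which the exact test does not give, filled black circles passed the study's cut-off of 0.01 and open grey squares did not, and the dotted line is the value given in the text. The first row of RIPPLY3 already uses every gene with at least 1 count, and the filter at 1 CPM removes it. Library size alone gave the largest changes, 0.73, 1.18 and 2.50.

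The relation to the share of the 10 most abundant genes was then examined heifer by heifer. IUHT-H 9196 and 9203 and IUCL-H 9202 had the 3 lowest shares (64.7% to 67.6%). Among these, the 2 IUHT-H averaged 10.8 CPM of HOXA9 against 9.67 CPM in IUCL-H 9202, a ratio of 1.12, and the ratios were 1.88 for ELL3 and 4.52 for RIPPLY3. IUHT-H 9204 and IUCL-H 9214 and 9223 had the 3 highest shares (72.1% to 74.7%). There, HOXA9 was at 12.1 CPM in IUHT-H 9204 against a mean of 5.98 CPM in the 2 IUCL-H, a ratio of 2.03, and the ratios were 1.98 for ELL3 and 3.83 for RIPPLY3. The HOXA9 difference was thus small among the heifers with a low share and large among those with a high share, while that of ELL3 was alike in both sets. The only IUCL-H among the low shares was 9202, whose HOXA9 level stood apart from its group, so the HOXA9 contrast between the sets rests on that heifer. These sets hold 1 or 2 heifers per group and were not tested.

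**Figure D3:**
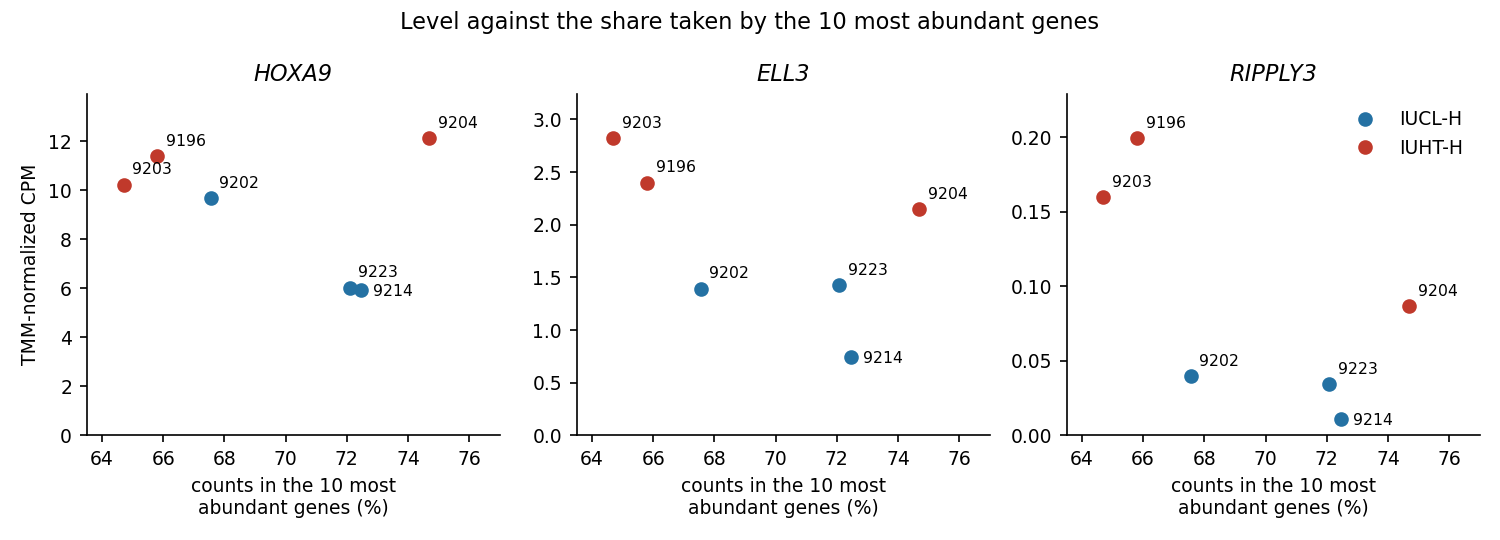
TMM-normalized CPM of HOXA9, ELL3 and RIPPLY3 (y axes, linear, from 0) against the percentage of counts in the 10 most abundant genes (x axis), 1 point per heifer. IUHT-H 9204, with a share of 74.7%, has the highest HOXA9 level (12.1 CPM), whereas its ELL3 and RIPPLY3 levels are the lowest of the 3 IUHT-H.

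Over the 6 heifers, the log2 TMM-normalized CPM tended to be lower where the share was higher, and no coefficient passed a threshold of 0.05. For HOXA9, Pearson's r was -0.36 (two-sided exact permutation test, P = 0.41) and Spearman's rho was -0.09 (P = 0.92). ELL3 gave r = -0.51 (exact permutation test, P = 0.29) and rho = -0.6 (P = 0.24), and RIPPLY3 gave r = -0.61 (exact permutation test, P = 0.18) and rho = -0.6 (P = 0.24). After Benjamini-Hochberg adjustment over the 3 relations, the exact permutation P-values of r were 0.41 for each gene. Without the 2 heifers farthest from the median share, IUHT-H 9203 and 9204, r over the remaining 4 was -0.9996 for HOXA9, -0.80 for ELL3 and -0.85 for RIPPLY3. These 4 are the 3 IUCL-H and IUHT-H 9196, which has the lowest share among them. Group and share therefore cannot be told apart in these coefficients. Without 9204 alone, r of HOXA9 was -0.97, so its value over all 6 heifers rested on that heifer. The other coefficients moved with single heifers too, from -0.28 without 9203 to -0.87 without 9204 in ELL3 and from -0.47 to -0.89 without the same heifers in RIPPLY3. Scaled by library size alone, r became -0.68 for HOXA9, -0.70 for ELL3 and -0.67 for RIPPLY3. On that scale the median r of all 14724 genes was -0.81, and 93.8% of genes had a negative r, against a median of -0.03 after TMM, with quartiles of -0.55 and 0.51. The TMM values of HOXA9 and ELL3 thus lay within the quartiles of these 14724 filtered genes. RIPPLY3 is not among them and has few reads, so its value was not placed within that range.

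When the share was added to the model as a covariate, the log2 fold changes were 0.62 for HOXA9 (standard error 0.21), 0.95 for ELL3 (standard error 0.28) and 2.03 for RIPPLY3 (standard error 0.67). None of the 3 genes then passed the cut-off of 0.01 (adjusted p = 1 for each, edgeR's quasi-likelihood test), although ELL3 did in the fit over all genes with at least 1 count. In this model 0.278% of the filtered genes and 0.257% of the genes with at least 1 count were called higher in IUHT-H (0.285% and 0.247% with the share of the 6 most abundant genes, where the calls were alike). The changes of all 3 genes stayed within 1 standard error of the values without the covariate. Both fits use the same 6 heifers, so these standard errors do not measure the spread of the difference between the fits.

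Passing the cut-off of 0.01 also depended on the test and on single heifers. HOXA9 and ELL3 passed in DESeq2 and in the exact and likelihood ratio tests of edgeR, where 0.53%, 0.482% and 0.509% of the genes were called higher in IUHT-H. RIPPLY3 passed in both tests of edgeR, with 0.406% and 0.627% of genes called higher, and not in DESeq2, with 0.411%. Without IUCL-H 9202, the difference of HOXA9 was 0.91 on the log2 scale with a standard error of 0.14 (adjusted p = 0.456, edgeR's quasi-likelihood test), and it passed. With any other heifer left out it did not pass over filtered genes, but without IUHT-H 9203 it passed over genes with at least 1 count. In the fit without 9202, 0.942% of the filtered genes were called higher in IUHT-H. Over filtered genes, ELL3 no longer passed without IUCL-H 9214 (log2 fold change 0.80), IUHT-H 9196 (1.07) or IUHT-H 9203 (0.94), where 0.114%, 0.234% and 0.167% of genes were called higher, although without 9196 it passed over genes with at least 1 count. It passed without IUCL-H 9202, without 9223 (0.187%) and without IUHT-H 9204 (0.956%). In the fits over genes with at least 1 count, RIPPLY3 passed without IUHT-H 9204 (2.59), where 0.932% were called higher. It did not pass without any of the other 5 heifers, and those shares were 0.925% without IUCL-H 9202, 0.186% without 9214, 0.26% without 9223, 0.338% without IUHT-H 9196 and 0.271% without 9203. The filter on low counts kept RIPPLY3 when any IUCL-H or IUHT-H 9204 was left out. Over filtered genes RIPPLY3 then passed without IUCL-H 9202 (2.67) and without IUHT-H 9204 (2.59), and not without 9214 or 9223. The shares of filtered genes called higher in these fits are those given above.

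**Figure D4:**
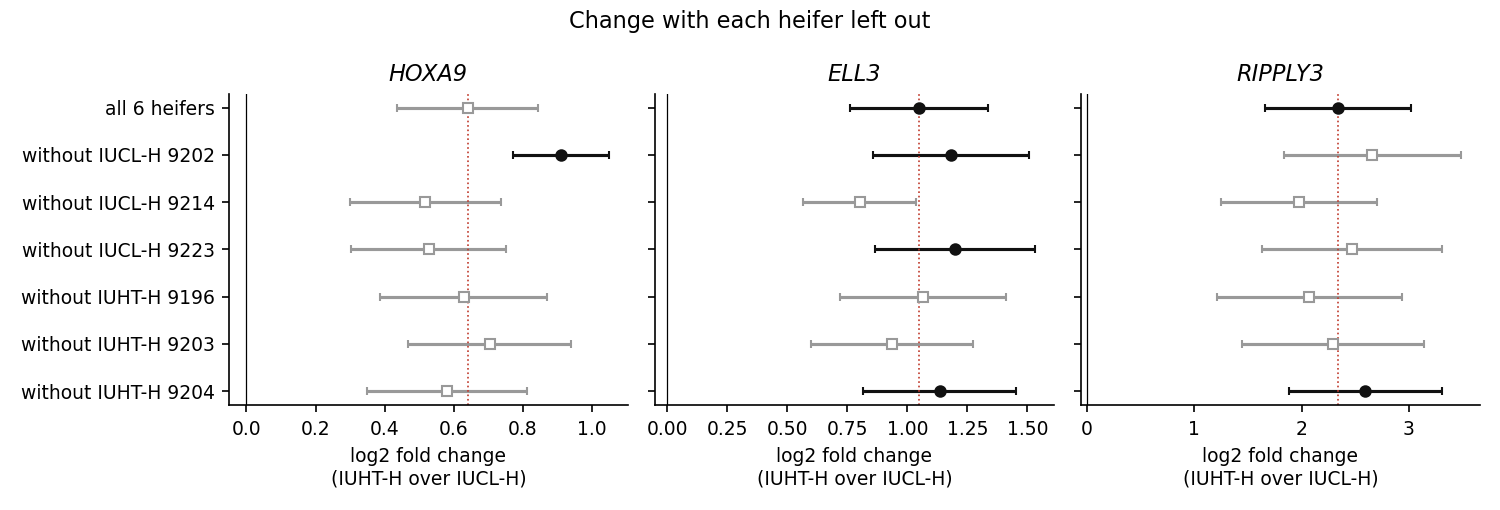
Log2 fold change of IUHT-H over IUCL-H (x axis) with all 6 heifers and with each heifer left out (y axis), over filtered genes for HOXA9 and ELL3 and over genes with at least 1 count for RIPPLY3. Bars are standard errors, filled black circles passed the cut-off of 0.01 in edgeR's quasi-likelihood test and open grey squares did not. HOXA9 is highest (0.91) without IUCL-H 9202, and ELL3 is lowest (0.80) without IUCL-H 9214.

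Of 98 listed partners and relatives of the 3 proteins, 2 could be matched to an identifier. PBX2 (ENSBTAG00000014421), a DNA-binding cofactor of HOX proteins, was at 15.5 CPM in IUCL-H 9202, 19.7 in 9214 and 17.7 in 9223, against 17.0 CPM in IUHT-H 9196, 23.1 in 9203 and 15.0 in 9204. The groups of PBX2 overlapped, and the fitted difference was 0.07 on the log2 scale with a standard error of 0.18, which did not pass the cut-off. TBXT (ENSBTAG00000018681), the founding T-box factor, had 1 count in IUHT-H 9203 and none in the other heifers. The other HOX, ELL, T-box and TLE genes were not analysed here. In the RefSeq annotation of assembly ARS-UCD2.0, which is not the assembly of the counts, no other gene overlapped any of the 3 loci. Among named protein-coding genes, HOXA9 lies there between HOXA10 and HOXA7, ELL3 between PDIA3 and SERF2, and RIPPLY3 between HLCS and PIGP.

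Of 46 markers of epithelial, stromal, vascular, fat and immune cells, only JCHAIN, the joining chain made by plasma cells, could be matched, so the cell composition of the biopsies was not examined. Names came only from the study's lists of genes that differed in methylation or expression, and the study named JCHAIN as higher in IUHT-H. Its higher level below was therefore largely fixed beforehand. JCHAIN was at 37.9 CPM in IUCL-H 9202, 36.9 in 9214 and 69.7 in 9223, against 142 CPM in IUHT-H 9196, 223 in 9203 and 80.8 in 9204. As in ELL3, IUHT-H 9203 was the highest heifer, IUHT-H 9204 the lowest IUHT-H and IUCL-H 9214 the lowest of all. Both genes were named by the study as higher in the same group, so this likeness is not independent evidence. The fitted difference of JCHAIN was 1.63 on the log2 scale with a standard error of 0.39, which passed the cut-off of 0.01 (adjusted p = 0.999, edgeR's quasi-likelihood test). In that fit 0.285% of the filtered genes passed with a higher level in IUHT-H. The part of plasma cells or other immune cells in the levels of the 3 genes was not tested.

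The genes with the most similar pattern were sought among 212 named genes with a mean of at least 1 CPM, by Pearson's r of the log2 CPM over the 6 heifers. For HOXA9 these were PROM2 (r = 0.99), JSP.1 (0.98) and ZNF134 (0.95). PROM2, a membrane glycoprotein of cell protrusions, was at 3.90 CPM in IUCL-H 9202, 2.43 in 9214 and 2.35 in 9223, against 5.46 CPM in IUHT-H 9196, 4.20 in 9203 and 5.70 in 9204, nearly the order of HOXA9. JSP.1 belongs to the bovine major histocompatibility genes, whose near-identical copies can share reads, so its values are uncertain. For ELL3 they were CREBRF (0.99), a regulator of the cellular stress response, LCN2 (0.98), an iron-withholding protein of innate defence, and CD244 (0.94), a receptor of natural killer cells. LCN2 was at 10.2 CPM in IUCL-H 9202, 6.10 in 9214 and 14.8 in 9223, against 24.8 CPM in IUHT-H 9196, 37.8 in 9203 and 21.4 in 9204. The 212 names came only from the study's lists of genes that differed in methylation or expression. That all 6 were listed by the study was therefore fixed beforehand, and they are not independent evidence. Among 11897 genes with or without a name, 30 reached r of at least 0.95 with HOXA9 and 23 with ELL3.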

How the data were processed

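RNA of 6 mammary biopsies was sequenced as paired-end reads. Per the labels and the study's methods, the authors mapped the reads with TopHat2 (version 2.0.13); the methods name assembly bosTau7 and the processing notes UMD3.1 and HTSeq. The authors deposited unnormalized read counts per Ensembl gene, 1 library per heifer, with no pooling. The annotation release and strand setting are not given in the sources used here. Gene names came from the study's supplementary tables, because the RefSeq table used here holds no Ensembl identifiers.

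Genes were filtered with filterByExpr, scaled by TMM and compared with edgeR's quasi-likelihood test (version 4.0.16, R 4.3.3) over all 6 heifers, with Benjamini-Hochberg adjustment over all genes tested. RIPPLY3 was taken from the same fit over genes with at least 1 count. Standard errors of quasi-likelihood fits are the log2 fold change divided by the square root of F. Those of the likelihood ratio test use the likelihood ratio statistic in place of F, and those of DESeq2 are its own. The log2 CPM values for correlations used a prior count of 2. DESeq2 (version 1.42.0), other normalizations, filters and tests, and leaving out heifers were alternatives. The scripts were tested on simulated data. The members and lists were chosen with earlier results of these data known. Named genes are the 3 members, matched list genes, and the 3 named genes most like HOXA9 and ELL3.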

Additional observations from a re-analysis of the deposited data

How the results depend on the processing

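The direction of HOXA9, ELL3 and RIPPLY3 held under every alternative run. HOXA9 also passed the cut-off of 0.01 with a log2 fold change of 0.64 in the exact test, the likelihood ratio test, DESeq2 and with every gene of at least 1 count. Over filtered genes, ELL3 no longer passed with library size alone (1.18) or with the share of the 10 or the 6 most abundant genes as a covariate (0.95 and 0.96), although it passed in all 3 over genes with at least 1 count. RIPPLY3 no longer passed in DESeq2 (2.39) or with these covariates (2.03 and 2.05). The cause was not tested. With each heifer left out, the log2 fold changes over filtered genes were 0.52 to 0.91 for HOXA9 and 0.80 to 1.20 for ELL3. Those of RIPPLY3 over genes with at least 1 count were 1.98 to 2.66. The 6-gene share, its covariate fits and its removal, and the removal of the 10 genes followed by library size, were added after seeing the data. The alternatives on milk protein genes and GLYCAM1 were not run, because no such gene was matched by name. RIPPLY3 has no value under filterByExpr with all 6 heifers or under the 1 CPM filter.

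Over all genes, 63 passed the cut-off in the quasi-likelihood test, 108 in the exact test, 112 in the likelihood ratio test and 124 in DESeq2, and 38 to 246 with a heifer left out. With library size alone, 36 genes were called higher and 8 lower, against 42 and 21 after TMM. Between 0 and 16 filtered genes had an adjusted p below 0.05 in these tests (0 in the quasi-likelihood test, 374 with an unadjusted value below 0.05). No paired analysis was run, because the labels give each heifer her own number and name no pairs across the 2 groups. Low counts limit RIPPLY3, and 3 heifers per group limit all 3 genes.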
